A study of Mus musculus with 12 samples.

Results

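The genes described here encode the motors that move cargo along microtubules in the mouse hypothalamus: the kinesin heavy and light chains, the subunits of cytoplasmic dynein, and dynactin, the complex that dynein works with. Members were taken by symbol from a table of 24020 lines with the patterns Kif, Klc, Dync, Dynl and Dctn. Lines marked as repeated copies or pseudogenes were left out. This gave 65 genes. Of these, 43 had enough counts to be tested, 19 had some counts but too few, and 3 had no count in any library.

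RNA-seq was done on hypothalami of mice of the Wfs1tm1Koks strain, which carries a mutant allele of Wfs1. Its product, wolframin, sits in the membrane of the endoplasmic reticulum and is lost in Wolfram syndrome, a disease of diabetes, optic atrophy and neurodegeneration. The 12 libraries came from 3 genotypes with 4 individuals each: wild-type (libraries 1, 2, 3 and 5), heterozygous (1, 2, 3 and 4) and homozygous (1, 2, 4 and 5). These are the numbers of the count columns, and no homozygous label has the number 5. No treatment, age or sex was given, and nothing beyond the word individuals says how the animals were bred or housed. The labels speak of 5 hypothalamus animals of both genotypes while the design gives 4 for each of 3, so the p-values measure the spread between these libraries and no more. The labels also do not say which part of Wfs1 the mutant allele removes.

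Kinesins are ATP-driven motors that mostly walk towards the plus ends of microtubules, which point down the axon, while cytoplasmic dynein with dynactin walks back towards the cell body. Hypothalamic neurons depend on both directions, since peptide-filled dense core vesicles, mitochondria and synaptic vesicle precursors all travel between the cell body and distant terminals. Kinesin subfamilies differ in cargo and in action: some carry vesicles, some build cilia, and some take microtubules apart.

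The motor domain of a kinesin holds a P-loop, the stretch that grips the phosphate of ATP, and it shows how close the paralogs described below are to one another. The coding sequence around it is printed for Kif3a and Kif3c and for Kif21a and Kif21b, relatives that moved in opposite directions. Kif5a, Kif5c and Kif3b are printed as further relatives, and Kif2a as a motor of another subfamily. Kif5a and Kif3b did not pass the test described below. A script found 1 such match in 39 of 41 kinesins, in the longest GENCODE M21 transcripts. The 24 bases of the P-loop are in capitals, from build mm10, read along the coding strand:
Kif5a: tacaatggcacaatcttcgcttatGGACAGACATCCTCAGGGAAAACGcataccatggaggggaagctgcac
Kif5c: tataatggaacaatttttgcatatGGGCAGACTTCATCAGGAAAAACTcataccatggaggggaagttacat
Kif3a: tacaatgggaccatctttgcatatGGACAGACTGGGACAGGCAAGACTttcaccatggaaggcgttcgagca
Kif3b: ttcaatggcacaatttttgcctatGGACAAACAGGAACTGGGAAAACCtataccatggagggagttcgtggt
Kif3c: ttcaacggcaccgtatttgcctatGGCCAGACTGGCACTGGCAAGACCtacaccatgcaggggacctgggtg
Kif21a: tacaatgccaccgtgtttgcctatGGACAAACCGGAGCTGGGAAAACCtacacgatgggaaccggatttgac
Kif21b: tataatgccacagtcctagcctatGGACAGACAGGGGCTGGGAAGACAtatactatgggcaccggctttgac
Kif2a: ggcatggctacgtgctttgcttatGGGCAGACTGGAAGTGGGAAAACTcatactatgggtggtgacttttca
The capitals lie in exon 3 of Kif5a at chr10:127248042-127248065 (minus strand), in exon 3 of Kif5c at chr2:49680203-49680226 (plus strand) and in exon 10 of Kif2a at chr13:106979480-106979503 (minus strand). Those of Kif3a, Kif3b and Kif3c lie at chr11:53578861-53578884 in exon 3, chr2:153316566-153316589 in exon 2 and chr12:3366269-3366292 in exon 1, all on the plus strand. In Kif21a (chr15:90997708-90997838, minus strand) and Kif21b (chr1:136144816-136145147, plus strand) the P-loop is split by an intron between exons 2 and 3. Over the 72 bases, Kif5a and Kif5c were identical at 59 (81.9%), Kif21a and Kif21b at 58 (80.6%), Kif3a and Kif3b at 53 (73.6%), and Kif3a and Kif3c at 51 (70.8%). Exact sharing of sequence was looked at over 75 bases, the length of the forward read. The 35-base reverse reads and alignments with mismatches were not looked at. How well the counts separate these near relatives was therefore not tested. None of the 75-base stretches of the longest transcripts of Kif5c, Kif3c, Kif21a, Kif21b or Kif2a occurred in another gene, and 0.486% of those of Kif3a did. By contrast, 51.2% of such stretches of Dynlt1a and 82.6% of those of Dynlt1b were shared with other copies, so the low counts of those 2 genes are uncertain.

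Library totals ran from 979394 to 2330872 counts, which is shallow. All levels below are CPM, counts per 1000000 counts of the library in tested genes, after correction by TMM factors. Wfs1 stood at 114 to 167 CPM in wild-type, 81.8 to 103 CPM in heterozygous and 14.8 to 20.1 CPM in homozygous libraries, in the order that the labels give. The motor genes together took 1.31% to 1.504% of all counts in every library. Rn45s, the precursor of ribosomal RNA, was at 958 to 1983 CPM in wild-type, 352 to 788 CPM in heterozygous and 85.8 to 352 CPM in homozygous libraries, with homozygous libraries 4 and 5 lowest. In the same 2 libraries GC-rich transcripts were lower than elsewhere. For each gene outside the motor genes, log2 CPM minus its mean over all libraries was set against transcript GC content. The slope of this was -0.0475 and -0.0521 per percent GC, against 0.00243 to 0.0328 in wild-type libraries. Of the hypothalamus markers, Pmch, the gene of melanin-concentrating hormone, stood at 879.7 ± 137 CPM in wild-type, 1047 ± 228 CPM in heterozygous and 1031 ± 183 CPM in homozygous libraries (SD, n = 4). Sim1, Otp, Avp, Oxt, Hcrt, Agrp, Trh and Nkx2-1 also had counts. Among 4 markers of the neighbouring thalamus, the sum was 87.5 to 133 CPM in wild-type, 84.8 to 264 CPM in heterozygous and 71.8 to 163 CPM in homozygous libraries, and 4 markers of the telencephalon summed to 21.2 to 47.3 CPM.

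Homozygous hypothalami differed from wild-type in 17 of the 43 tested motor genes: 11 were higher and 6 were lower. That is 39.5% of them, beside 25.4% of all 10737 genes tested (13.7% higher and 11.6% lower), by edgeR's quasi-likelihood test at an adjusted p under 0.05. At an unadjusted p under 0.05 there were 23 of 43, beside 37.4% of all genes. Every homozygous library lay above every wild-type library for 12 motor genes and below for 5, beside 11.8% of all genes in each direction. The median log2 fold change of the tested motor genes was -0.10, against -0.03 over all genes. Of the 11 classes into which the motor genes were sorted, 3 held genes that rose and genes that fell: kinesin-2 (Kif3a higher, Kif3c lower), kinesin-4 (Kif21a and Kif27 higher, Kif21b lower) and the dynein light chains (Dynlt3, Dynll2 and Dynlrb1 higher, Dynll1 lower). Within kinesin-1, the heavy chains Kif5b and Kif5c were higher and both tested light chains were lower. In whole tissue, fewer cells of a type and less RNA per cell cannot be told apart.

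**Figure D1:**
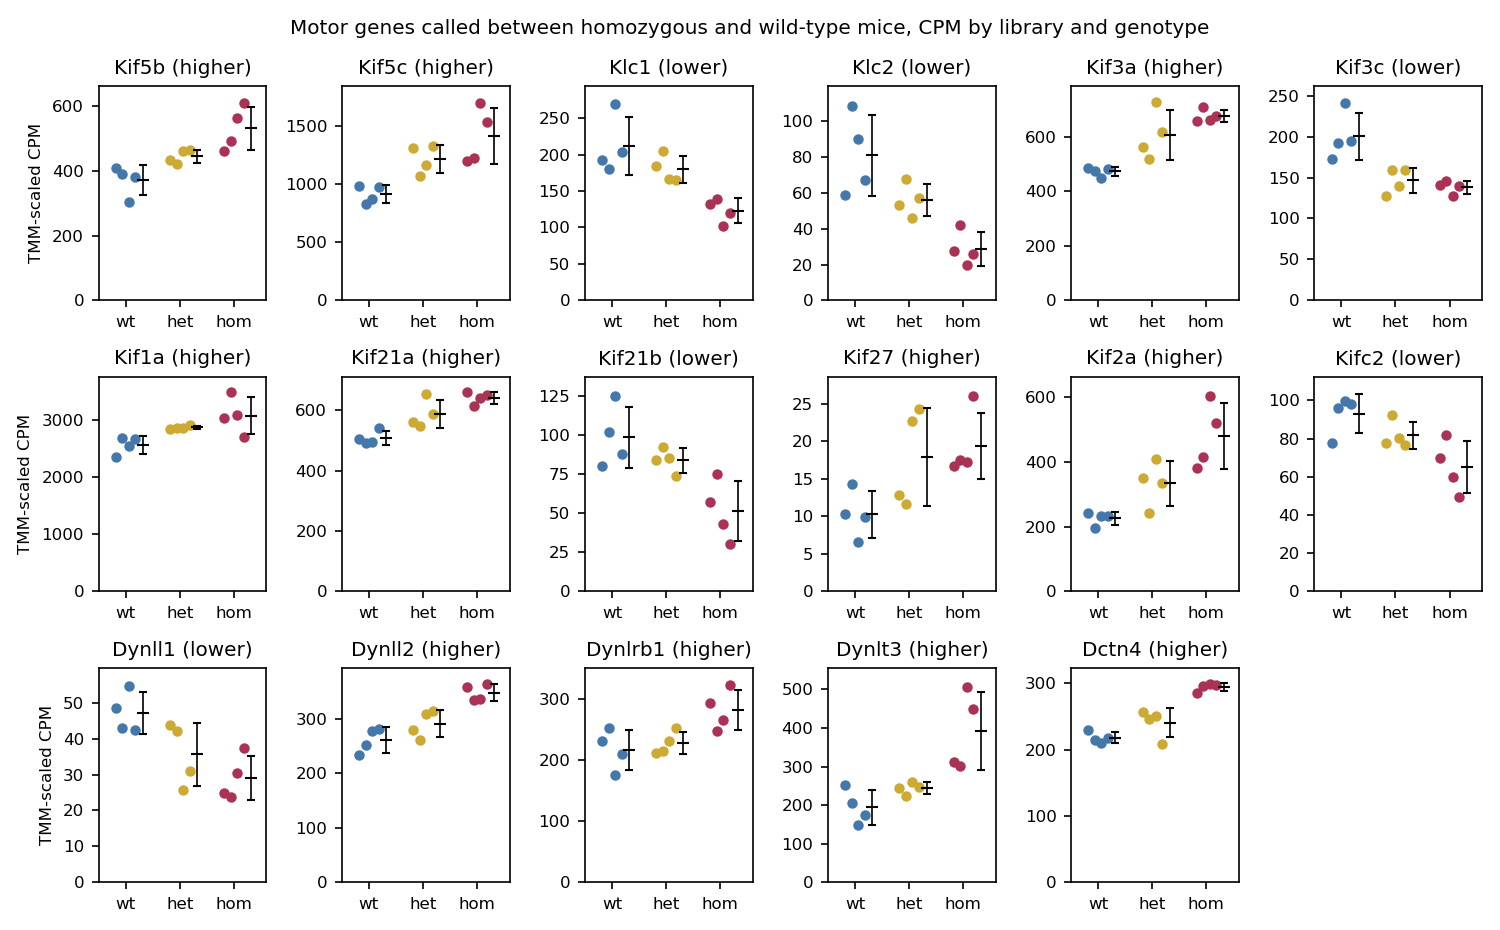
TMM-scaled CPM (y axis, from 0) of the 17 motor genes that differed between homozygous and wild-type mice, by genotype (x axis; wt, wild-type; het, heterozygous; hom, homozygous). Points are single libraries, and the bar beside each group is the mean with its SD (n = 4). The 4 homozygous libraries of Kif2a lie between 379.6 and 603 CPM, all above the wild-type ones.

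Kinesin-1, the classical motor of axonal transport, is built from heavy chains with the motor domain and light chains that hold cargo. Of the 3 heavy chains, Kif5a was the most abundant, at 1954, 2159, 1856 and 1934 CPM in wild-type, 1859.6, 1781, 1806 and 1877 CPM in heterozygous, and 1833, 1936, 1623 and 1491 CPM in homozygous libraries. The groups overlapped, and the log2 difference of -0.20 (SE 0.101) between homozygous and wild-type did not pass the test (adjusted p = 0.155).

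Kif5c (ENSMUSG00000026764.15, chr2:49619298-49774778, plus strand), a heavy chain found mainly in neurons, was higher in homozygous mice. Its levels were 979, 823, 873 and 976 CPM in wild-type, 1304, 1069, 1165 and 1327 CPM in heterozygous, and 1198, 1218, 1692 and 1531 CPM in homozygous libraries. All homozygous libraries, and all heterozygous ones, lay above all wild-type libraries. Against wild-type the homozygous log2 fold change was 0.63 (SE 0.120, adjusted p = 0.000702), and it was 0.41 with homozygous libraries 4 and 5 left out. Kif5b, the heavy chain that most tissues use, was at 409, 389, 305 and 382 CPM in wild-type, 433, 421, 459 and 463 CPM in heterozygous, and 461, 493, 561 and 609 CPM in homozygous libraries. The homozygous values again all exceeded the wild-type ones, with a log2 fold change of 0.51 (SE 0.118, adjusted p = 0.00297).

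Both tested light chains were lower. Klc1 (ENSMUSG00000021288.18, chr12:111758849-111807844, plus strand), a main light chain of neurons, was at 193, 181, 269 and 203 CPM in wild-type, 184, 205, 166 and 165 CPM in heterozygous, and 133, 139, 101 and 119.7 CPM in homozygous libraries. Every homozygous library lay below every wild-type and every heterozygous library. The log2 fold change was -0.77 (SE 0.143, adjusted p = 0.000484) against wild-type. Klc2 (ENSMUSG00000024862.16, chr19:5107746-5118560, minus strand), the second light chain, was at 58.7, 108, 90.4 and 67.1 CPM in wild-type, 53.4, 67.6, 46.1 and 57.1 CPM in heterozygous, and 27.5, 42.2, 19.8 and 26.0 CPM in homozygous libraries. No homozygous library reached a wild-type or heterozygous one. Klc2 had the steepest fall of the tested motor genes, 2.68-fold, with means of 81.2 ± 22.6 CPM in wild-type and 28.9 ± 9.50 CPM in homozygous libraries (SD, n = 4). The log2 fold change of Klc2 was -1.42 (SE 0.222, adjusted p = 0.000105). Without homozygous libraries 4 and 5 the log2 fold changes were -0.64 for Klc1 and -1.16 for Klc2. The other light chains, Klc3 and Klc4, had 14 and 65 counts in all 12 libraries together and were not tested.

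Kinesin-2 motors work as pairs: Kif3a joins with Kif3b or with Kif3c, and the pair with Kif3b also carries the trains that build cilia. Kif3a (ENSMUSG00000018395.19, chr11:53567379-53601967, plus strand) was at 486, 476, 450.3 and 483 CPM in wild-type, 564, 516, 727 and 617 CPM in heterozygous, and 657, 708, 662 and 676 CPM in homozygous libraries. Both mutant groups lay wholly above wild-type, and the 4 homozygous libraries were close together. Kif3a rose by a log2 fold change of 0.51 (SE 0.111, adjusted p = 0.00184). Kif3c (ENSMUSG00000020668.10, chr12:3365132-3406494, plus strand) was at 173, 192, 241 and 195 CPM in wild-type, 128, 159, 139.9 and 159 CPM in heterozygous, and 141, 145, 127 and 140.0 CPM in homozygous libraries. Here both mutant groups lay wholly below wild-type (homozygous against wild-type, log2 fold change -0.53, SE 0.129, adjusted p = 0.00433). Kif3b was level across genotypes, at 110.4 ± 6.63, 118 ± 11.7 and 121 ± 20.5 CPM in wild-type, heterozygous and homozygous libraries (log2 difference 0.12 between homozygous and wild-type, SE 0.138, adjusted p = 0.544). Kif17, a dendritic motor that pairs with itself, was at 14.1 ± 5.45 and 7.98 ± 2.43 CPM in wild-type and homozygous libraries (log2 difference -0.79, SE 0.339, adjusted p = 0.0907).

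Whether counting used the strand of the reads is not stated in the sources used here, and some motor genes overlap genes on the other strand. Exons of 1110002L01Rik and Gm48512 cover 44.4% of the longest Kif3c transcript, and exons of Dimt1 cover 23.2% of that of Kif2a. For Klc2 the overlap is 13.9%, with AC124502.1, and for Kifc3 it is 31.1%. 1110002L01Rik itself was at 43.0 ± 7.49 CPM in wild-type and 40.8 ± 6.14 CPM in homozygous libraries (log2 difference -0.10, SE 0.179, adjusted p = 0.723). Dimt1 was at 12.9 ± 5.06 and 21.6 ± 10.7 CPM (log2 difference 0.64, SE 0.337, adjusted p = 0.172), far below Kif2a.

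Kinesin-3 holds the fast carriers of vesicles. Kif1a (ENSMUSG00000014602.15, chr1:93015464-93101951, minus strand), which carries synaptic vesicle precursors and dense core vesicles, had the most counts of any motor gene. It was at 2351, 2689.7, 2547 and 2669 CPM in wild-type, 2853, 2858, 2868 and 2923 CPM in heterozygous, and 3045, 3491, 3086 and 2707 CPM in homozygous libraries. The homozygous libraries did not overlap the wild-type ones, though the lowest of them, library 5, was barely above. The rise was small, with a log2 fold change of 0.27 (SE 0.0964, adjusted p = 0.0451), and the call was lost when any of 10 of the 12 libraries was left out, with an adjusted p of up to 0.129; it held without heterozygous library 2 and without homozygous library 5. Kif1b, a carrier of mitochondria and synaptic vesicle precursors, stood at 2189.6 ± 186 CPM in wild-type and 2169.8 ± 227 CPM in homozygous libraries, a log2 difference of -0.01 (SE 0.101, adjusted p = 0.942). The other tested members, Kif1c, Kif13a, Kif13b and Kif16b, which move endosomes and other membranes, had log2 differences from -0.43 to 0.40 and none passed the test.

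The kinesin-4 genes are known more for setting microtubule growth than for carrying cargo. Kif21a (ENSMUSG00000022629.17, chr15:90933276-91049948, minus strand), which restrains microtubule growth and is mutated in an inherited eye movement disorder, was at 504, 492, 495 and 542 CPM in wild-type, 562, 549, 654 and 589 CPM in heterozygous, and 661, 616, 641 and 650.3 CPM in homozygous libraries. All mutant libraries lay above the wild-type ones, and the homozygous rise was 0.34 on the log2 scale (SE 0.101, adjusted p = 0.0173). Kif21b (ENSMUSG00000041642.18, chr1:136131389-136177998, plus strand), its neuronal paralog, went the other way, at 79.9, 102, 125 and 87.6 CPM in wild-type, 84.2, 92.2, 85.0 and 73.5 CPM in heterozygous, and 57.0, 75.0, 42.8 and 30.5 CPM in homozygous libraries. The homozygous libraries all lay below the wild-type ones, with libraries 4 and 5 the lowest. Its log2 fold change was -0.88 (SE 0.199, adjusted p = 0.00265), and -0.55 without those 2 libraries. Kif27, a gene linked to motile cilia, was low, at 10.3, 14.3, 6.56 and 9.95 CPM in wild-type, 12.9, 11.7, 22.7 and 24.3 CPM in heterozygous, and 16.8, 17.5, 17.3 and 26.0 CPM in homozygous libraries. Homozygous libraries did not overlap wild-type ones (log2 fold change 0.90, SE 0.307, adjusted p = 0.0335), but the call was lost when any of wild-type libraries 1, 3 and 5 or homozygous library 5 was left out. The kinesin-4 genes Kif4 and Kif7 had too few counts.

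Kif2a (ENSMUSG00000021693.20, chr13:106958996-107022126, minus strand) belongs to kinesin-13, whose members do not walk but take microtubules apart from their ends, which in neurons limits side branches of axons. It showed the largest rise of the tested motor genes: 242, 194, 232 and 231 CPM in wild-type, 348, 243, 408 and 333 CPM in heterozygous, and 379.6, 415, 603 and 518 CPM in homozygous libraries. Every heterozygous and homozygous library was above every wild-type library, and the homozygous libraries 4 and 5 were the highest of all. The rise was 2.12-fold (log2 fold change 1.08, SE 0.155, adjusted p = 3.79e-05), with a log2 fold change of 0.82 without those 2 libraries. Kif24, the other tested kinesin-13 gene, was at 10.3 ± 3.81 and 4.43 ± 1.53 CPM in wild-type and homozygous libraries, a log2 difference of -1.08 (SE 0.454) that did not pass the test (adjusted p = 0.0819).

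Kinesin-14 motors carry their motor domain at the other end of the chain and walk towards the minus end. Kifc2, which is found mainly in neurons, was at 77.7, 96.1, 99.8 and 98.2 CPM in wild-type, 77.8, 92.2, 80.6 and 76.8 CPM in heterozygous, and 69.7, 81.7, 60.1 and 49.7 CPM in homozygous libraries. The genotypes overlapped, since wild-type library 1 lay below homozygous library 2. The log2 fold change was -0.48 (SE 0.156, adjusted p = 0.0268). This call was lost without wild-type library 2, 3 or 5 or homozygous library 4 or 5, with an adjusted p of up to 0.0861. Kifc3, which is found in many tissues, was at 12.7 ± 4.92 and 10.3 ± 2.01 CPM and did not pass the test (adjusted p = 0.613).

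Of the 14 genes of the remaining kinesin subfamilies, 4 were tested (Kif6, Kif9, Kif20a and Kif26b) and none passed the test. The one with the most counts was Kif26b, a kinesin thought to signal more than to move, at 22.0, 24.7, 27.0 and 21.1 CPM in wild-type, 19.3, 22.9, 13.9 and 25.6 CPM in heterozygous, and 22.1, 27.4, 16.5 and 15.8 CPM in homozygous libraries. These values overlapped throughout (homozygous against wild-type, log2 difference -0.15, SE 0.235, adjusted p = 0.674). Per length of transcript it was the lowest of the 4, at 1.57 CPM per kb, below Kif9 at 2.49, Kif20a at 2.29 and Kif6 at 1.79. Kif20a, a kinesin of cytokinesis, had 149 counts over all 12 libraries and stood at 9.26 ± 1.67 CPM in wild-type and 8.12 ± 3.75 CPM in homozygous libraries. Exons of Cdc23 on the other strand, itself at 48.7 ± 8.64 and 47.1 ± 6.36 CPM, cover 34.6% of its transcript. The other kinesins of cell division had few counts or none. The spindle motors Kif11, Kif15, Kif18a, Kif22 and Kif23 had 26, 24, 12, 38 and 22 counts over all 12 libraries. Kif2c had 6, and Kifc1, Kifc5b and Kif2b had none. Of the 75-base stretches of Kifc1 and Kifc5b, 34.6% and 30.2% were shared with other genes, so the lack of counts there is uncertain. A general set of 8 division markers, such as Mki67 and Top2a, summed to 2.19 to 17.3 CPM per library, with 3 of the 8 at 0 throughout. The 22 untested motor genes held 493 of the 261270 motor gene counts, and no statement on genotype is made for them.

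Cytoplasmic dynein is built on a heavy chain with the motor, intermediate and light intermediate chains that join it to dynactin and cargo, and small light chains. None of the 7 heavy, intermediate and light intermediate chain genes passed the test. The heavy chain Dync1h1 (ENSMUSG00000018707.13, chr12:110601452-110666945, plus strand) was at 953, 1055, 1256 and 1180.4 CPM in wild-type, 1123, 1244, 1266 and 1282 CPM in heterozygous, and 1212, 1148, 976 and 872 CPM in homozygous libraries. The 3 genotypes overlapped (homozygous against wild-type, log2 difference -0.08, SE 0.116, adjusted p = 0.667). The intermediate chains Dync1i1 and Dync1i2 had log2 differences of -0.30 and 0.25, and the light intermediate chains Dync1li1 and Dync1li2 had -0.19 and 0.26. Of these, only Dync1li2 had all homozygous libraries above all wild-type ones, at 385 ± 20.6 against 322 ± 24.6 CPM (SE 0.110, adjusted p = 0.0889). Dync2h1, the heavy chain of the dynein that works inside cilia, also had all homozygous libraries above the wild-type ones, at 252 ± 19.0 against 212 ± 20.6 CPM (log2 difference 0.25, SE 0.117, adjusted p = 0.128).

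Of the 4 tested dynein light chains, 3 rose and 1 fell, beside 25.4% of all genes that passed the test in either direction; whether light chains differed from the other dynein genes was not tested. Dynlt3 (ENSMUSG00000031176.8, chrX:9654267-9663003, minus strand), a Tctex-type light chain, was at 252, 205, 148 and 173 CPM in wild-type, 245, 223, 261 and 247 CPM in heterozygous, and 310.5, 303, 506 and 449 CPM in homozygous libraries. The homozygous libraries lay above all others, and libraries 4 and 5 were the highest. Dynlt3 rose 2.01-fold, which is 1.01 on the log2 scale (SE 0.166, adjusted p = 0.000176), and by 0.66 on that scale without those 2 libraries. The LC8 light chains Dynll1 and Dynll2, small proteins that many partners besides dynein bind, went in opposite directions. Dynll2 (chr11:87979525-87987533, minus strand) was at 233, 252, 278 and 282 CPM in wild-type, 279.6, 262, 309 and 314 CPM in heterozygous, and 358, 334, 337 and 365 CPM in homozygous libraries. The homozygous libraries lay above all the others (log2 fold change against wild-type 0.41, SE 0.111, adjusted p = 0.00929). Dynll1 (chr5:115297110-115300999, minus strand) was at 48.4, 42.8, 54.7 and 42.3 CPM in wild-type, 43.7, 42.1, 25.6 and 30.8 CPM in heterozygous, and 24.8, 23.8, 30.5 and 37.3 CPM in homozygous libraries. Here the homozygous libraries lay below the wild-type ones (log2 fold change -0.73, SE 0.205, adjusted p = 0.0112). Its log2 fold change was -0.95 without homozygous libraries 4 and 5. Dynlrb1, a roadblock light chain, was at 231, 253, 176 and 210.1 CPM in wild-type, 213, 216, 231 and 253 CPM in heterozygous, and 294, 248.7, 266 and 324 CPM in homozygous libraries. Wild-type library 2 lay above homozygous library 2, so the groups touched. The log2 fold change of 0.38 (SE 0.128, adjusted p = 0.0323) lost its call without wild-type library 3 or 5 or homozygous library 1 or 5, with an adjusted p of up to 0.127.

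Dynactin couples dynein to its cargo and lets it walk far. Of its 6 genes with a Dctn symbol, only Dctn4, a subunit at the pointed end of the complex, passed the test. It was at 229.5, 215, 209.9 and 217 CPM in wild-type, 256, 246, 251 and 208 CPM in heterozygous, and 285, 295, 298 and 297 CPM in homozygous libraries. The 4 homozygous values were close together and above all others (log2 fold change against wild-type 0.43, SE 0.110, adjusted p = 0.00599). Dctn1, the large subunit that grips the microtubule, was at 70.1 ± 15.1 CPM in wild-type and 47.7 ± 16.6 CPM in homozygous libraries. The log2 difference of -0.51 (SE 0.216, adjusted p = 0.0838) was -0.18 without homozygous libraries 4 and 5. Dctn2, Dctn3, Dctn5 and Dctn6 had log2 differences of -0.10, -0.30, -0.01 and -0.15, and their libraries overlapped.

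**Figure D2:**
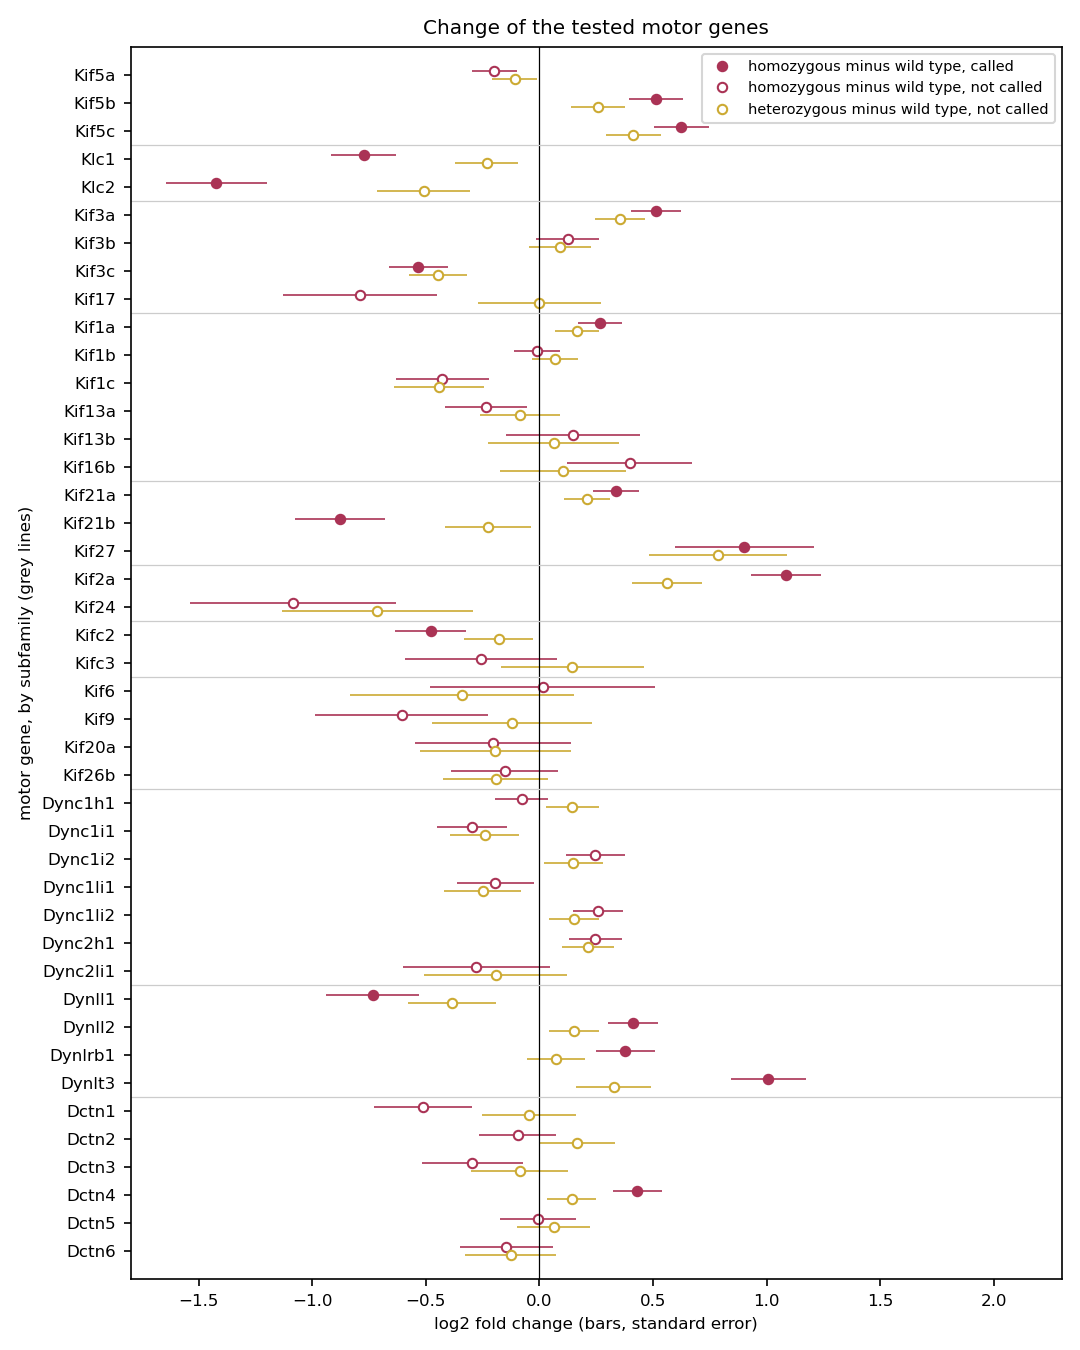
Log2 fold change (x axis) of the 43 tested motor genes (y axis, grouped by subfamily), homozygous minus wild-type in red and heterozygous minus wild-type in yellow, with bars of 1 SE. Filled points passed the test. Klc2 lies farthest to the left at -1.42 and Kif2a farthest to the right at 1.08.

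Because partners and paralogs are counted in the same library, their ratio does not depend on how libraries are scaled to one another. It can still hold a trend with GC content, whose part in these ratios was not tested. Transcript GC was 56.0% and 60.4% in Klc1 and Klc2, against 53.8%, 41.1% and 47.5% in Kif5a, Kif5b and Kif5c. It was 51.6% in Kif3c and 47.6% in Kif3a, and 56.7% in Kif21b and 47.1% in Kif21a. Dynll1 went the other way, at 49.3% against 53.7% in Dynll2. The pairs below were chosen after the values were seen, so they are given without a test. The counts of Klc1 and Klc2 over those of the 3 heavy chains were 0.0753, 0.0858, 0.118 and 0.0821 in the wild-type libraries, 0.0660, 0.0833, 0.0619 and 0.0605 in the heterozygous ones, and 0.0459, 0.0496, 0.0312 and 0.0401 in the homozygous ones. By the means of the log2 ratios, homozygous libraries were 2.17-fold below wild-type libraries, with no overlap. The ratio of Kif3c to Kif3a was 0.425 ± 0.0772 in wild-type libraries, 0.247 ± 0.0494 in heterozygous ones and 0.205 ± 0.00950 in homozygous ones (SD, n = 4). By the means of the log2 ratios it was 2.05-fold lower in the homozygous group than in wild-type. Neither mutant group overlapped wild-type. The ratio of Kif3b to Kif3a was 0.233 ± 0.0151 in wild-type and 0.178 ± 0.0263 in homozygous libraries.

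The ratio of Kif21b to Kif21a fell from 0.195 ± 0.0438 to 0.0804 ± 0.0319, and that of Dynll1 to Dynll2 from 0.181 ± 0.0261 to 0.0833 ± 0.0158. Within kinesin-1, the counts of Kif5a over those of Kif5c went from 2.18 ± 0.301 in wild-type through 1.51 ± 0.118 in heterozygous to 1.26 ± 0.343 in homozygous libraries. In homozygous libraries 4 and 5, Kif5c had more counts than Kif5a (ratios 0.959 and 0.974). All 5 of these ratios had no homozygous library within the wild-type range. With homozygous libraries 1 and 2 alone, the log2 differences from wild-type were -0.90 for light over heavy chains, -1.001 for Kif3c over Kif3a, -0.90 for Kif21b over Kif21a, -1.35 for Dynll1 over Dynll2 and -0.47 for Kif5a over Kif5c.

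**Figure D3:**
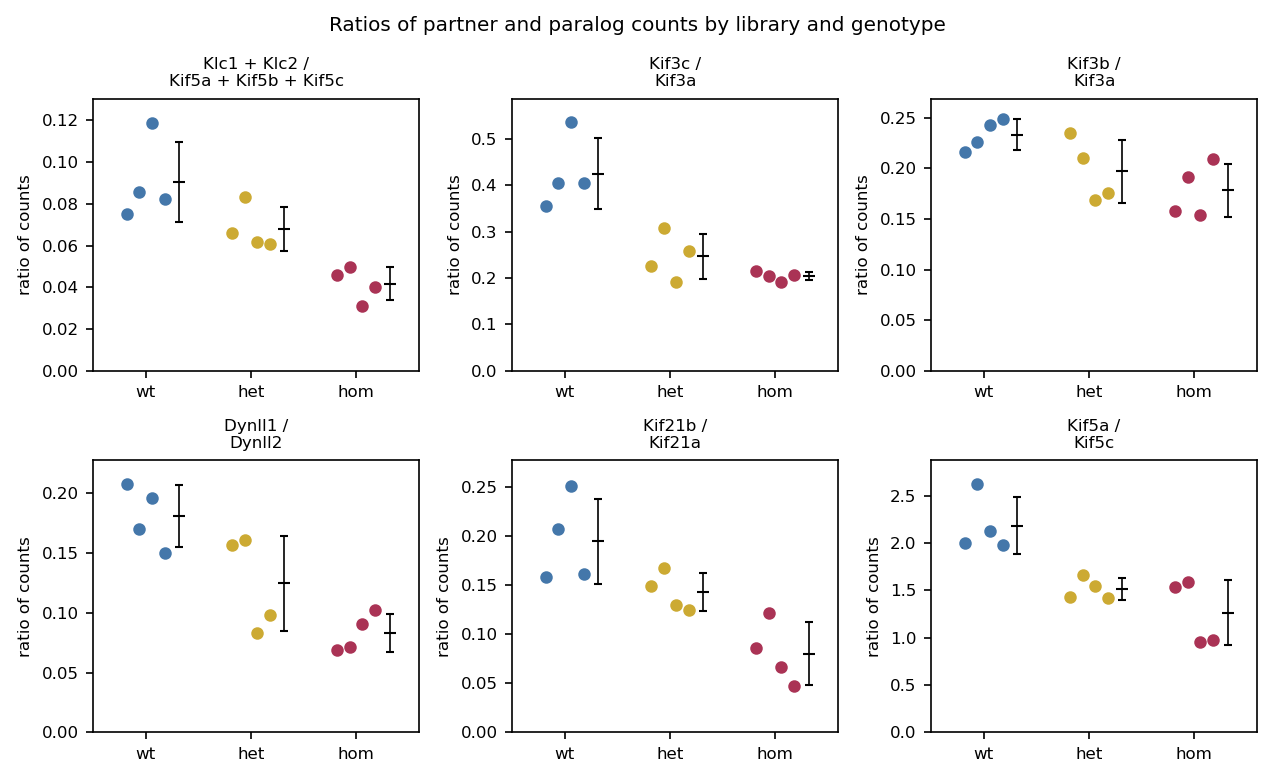
Ratio of the raw counts of partner or paralog genes (y axis, from 0) by genotype (x axis; wt, wild-type; het, heterozygous; hom, homozygous). Points are single libraries and bars are means with SD (n = 4). The ratio of Kif3c to Kif3a lies between 0.356 and 0.536 in wild-type and between 0.192 and 0.214 in homozygous libraries.

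Levels of different genes can be set side by side only per length of transcript. Over all 12 libraries Kif1a led with 346 CPM per kb, followed by Dynlrb1 at 308, Kif5a at 293, Kif1b at 217, Kif3a at 185 and Kif5c at 172 CPM per kb. The dynein heavy chain Dync1h1 stood at 78.8 CPM per kb and the lowest tested motor gene, Kif24, at 1.22 CPM per kb. On this scale Kif5a was 314 CPM per kb in wild-type and 273 in homozygous libraries, while Kif5c went from 133 to 206. Klc1 went from 84.4 to 49.2 CPM per kb and Klc2 from 25.6 to 9.11.

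In heterozygous mice no tested motor gene passed the test against wild-type in edgeR, beside 0.596% of all genes. Without adjustment, 9 of 43 had a p under 0.05, beside 14.2% of all genes tested. Closest to the threshold were Kif2a (log2 difference 0.56, adjusted p = 0.0964), Kif3c (-0.45, 0.104) and Kif5c (0.41, 0.109). These 3 and Kif3a were called by both DESeq2's Wald test and limma-voom with quality weights, beside 2.07% and 3.67% of all genes. All heterozygous libraries lay above all wild-type libraries for 6 members (4.77% of all genes) and below them for 2 (4.57%). The 6 were Kif5b, Kif5c, Kif3a, Kif1a, Kif21a and Kif2a, and the 2 were Kif3c and Dync1li1.

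Homozygous and heterozygous mice differed in 3 motor genes, beside 2.2% of all genes (1.74% higher and 0.456% lower): Dynlt3 was higher, and Klc1 and Klc2 were lower. At an unadjusted p under 0.05 there were 11 of 43, beside 20.3% of all genes. All homozygous libraries lay above all heterozygous ones for 3 motor genes (Dynlt3, Dynll2 and Dctn4; 5.0% of all genes) and below them for 2 (Klc1 and Klc2; 4.48%). The log2 fold change of Dynlt3 was 0.68 (SE 0.163, adjusted p = 0.0332), that of Klc2 -0.91 (SE 0.224, adjusted p = 0.0338) and that of Klc1 -0.54 (SE 0.142, adjusted p = 0.0447). All 3 calls rested on single libraries. Without either homozygous library 4 or homozygous library 5, none of the 3 passed, and the same held when heterozygous library 1, 2 or 4 was left out. Klc1 also lost its call without heterozygous library 3 or wild-type library 1, 2 or 5, and Dynlt3 without heterozygous library 3.

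Transcript GC content moved with the changes. Among the 43 tested motor genes, the log2 difference between homozygous and wild-type had a Pearson r of -0.65 and a Spearman rho of -0.63 with the GC content of the longest transcript, against -0.47 and -0.49 over 10632 genes. These are descriptions across genes measured in the same libraries. The 5 motor genes below 45% GC held 3 risers (Kif5b, Kif2a and Dynlt3) and no fall, beside 28.2% of all such genes higher and 2.19% lower. The 10 at 55% GC or above held 4 of the 6 that fell (Klc1, Klc2, Kif21b and Kifc2), beside 26.3% of such genes lower. The same 10 also held 2 risers, Kif1a and Dynlrb1, where 3.07% of such genes were higher. Between these ends, Kif3c (51.6% GC) fell and Dynll2 (53.7% GC) rose in the class of 50 to 55% GC, where 15.5% of all genes were lower and 6.28% higher. The class of 45 to 50% GC held 16 motor genes. Of these, 5 rose (Kif5c, Kif3a, Kif21a, Kif27 and Dctn4) and Dynll1 (49.3% GC) fell. Among all genes of that class 5.12% were lower and 15.8% higher.

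**Figure D4:**
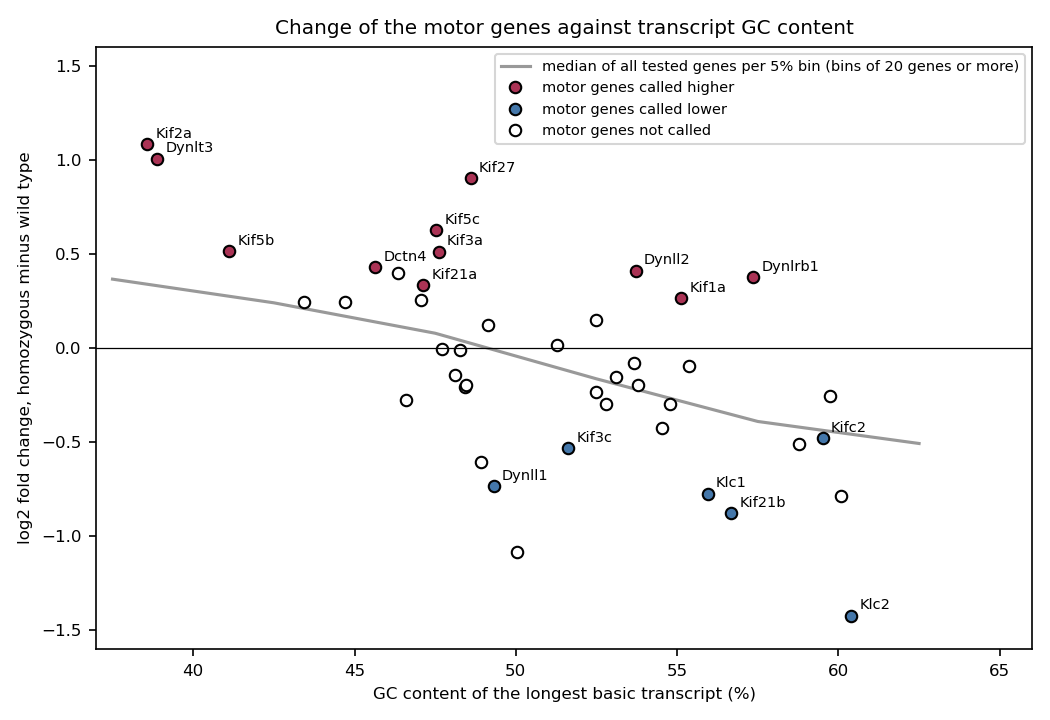
Log2 fold change, homozygous minus wild-type (y axis), against the GC content of the longest transcript in percent (x axis) for the 43 tested motor genes. The grey line joins the medians of all tested genes in bins of 5% GC. Kif2a and Dynlt3 lie at the GC-poor end at 1.08 and 1.01, Klc2 at the GC-rich end at -1.42, and Kif1a and Dynlrb1 lie above the line at 0.27 and 0.38.

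When each library's counts were first corrected for its own trend with GC content, 9 motor genes were higher and 5 lower. Of these, 14 were shared with the uncorrected result, and 21.2% of all genes were called. Kif5b (log2 difference 0.21, adjusted p = 0.130), Kif21a (0.24, 0.0608) and Kifc2 (-0.03, 0.910) lost their call. Klc2 stood at -0.96, Klc1 at -0.44, Kif2a at 0.70, Dynlt3 at 0.64, Kif5c at 0.55, Kif3a at 0.44, Kif3c at -0.42, Kif21b at -0.53 and Dynll1 at -0.74. Dynlrb1, Dynll2 and Kif1a had larger values under this correction, of 0.80, 0.65 and 0.58. With each library's GC slope as a covariate instead, 4 motor gene calls were kept, beside 4.45% of all genes called. The 4 were Kif1a (0.42, adjusted p = 0.0233), Kif2a (0.61, 0.0165), Kif3a (0.45, 0.0400) and Klc2 (-0.84, 0.0437). That slope differed between the genotypes, so the covariate and the genotype can be told apart only in part, and the role of GC content in these differences was not tested.

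Leaving out homozygous libraries 4 and 5 gave 9 higher and 5 lower motor genes, beside 11.9% of all genes called. Of these motor genes, 13 were shared with the full set. Kif16b, not called in the full set, was called then, at a log2 difference of 0.75 (adjusted p = 0.0343). It was also called with homozygous library 4 alone left out. In that library Kif16b stood at 9.89 CPM, against 35.5, 31.4 and 24.8 CPM in homozygous libraries 1, 2 and 5. Kif21a (0.33, adjusted p = 0.0540), Kif27 (0.77, 0.137), Kifc2 (-0.28, 0.272) and Dynlrb1 (0.32, 0.118) were no longer called without both libraries. Klc2, Kif3a and Kif2a were called between homozygous and wild-type mice in every fit that was run, including each of the 12 with a library left out.

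The genes that motors work with were described by the same test. Of 29 tested adaptors and regulators, 7 were higher and 7 lower, with a median log2 difference of 0.13. Over all genes tested, 13.7% were higher and 11.6% lower with a median of -0.03, and the counts of this list and of those that follow stand beside that background. Hook3, a dynein activator (0.60, SE 0.114, adjusted p = 0.000672), and Ktn1, kinectin, a kinesin-binding protein of the endoplasmic reticulum (0.59, SE 0.122, adjusted p = 0.00125), were higher. Madd, which links Kif1a and Kif1b to vesicles (-0.65, SE 0.137, adjusted p = 0.00153), and Mapk8ip1, which binds kinesin light chains (-0.86, SE 0.195, adjusted p = 0.00265), were lower. Of 9 tested genes from the rest of dynactin and from the ciliary dynein, 2 were higher and 2 lower. The ciliary dynein intermediate chain Wdr60 (1.41) and the dynactin pointed-end actin-related protein Actr10 (0.93) rose, while the actin-related filament proteins Actr1b (-1.03) and Actr1a (-0.52) fell.

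Tubulins and microtubule-associated proteins had 8 of 27 higher, among them the microtubule-severing enzyme Spast (0.86), the tubulins Tubb4a (0.69) and Tuba1a (0.69), and Dclk1 (0.66), and 2 lower. Intraflagellar transport, the cargo system of kinesin-2 in cilia, had 3 of 17 higher (Ift74 at 1.26, Cluap1 at 0.86 and Ift20 at 0.67) and none lower, with a median of 0.24. The actin motors, the myosins, had 5 of 18 higher, with Myo9a at 0.71, Myo10 at 0.51, Myo6 at 0.45 and Myh10 at 0.40, and 1 lower. In heterozygotes none of the genes of these 5 lists passed the test.

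Markers of cell types were set beside these results. Of 8 neuron markers, 3 were higher (Snap25 at 0.61, Elavl4 at 0.42 and Stmn2 at 0.40) and Eno2 was lower (-0.45). Their median log2 difference was -0.10. The sum of the 8 was 4618 to 5804 CPM in wild-type and 5524 to 7773 CPM in homozygous libraries. Snap25 was the largest part of it, with means of 2873 and 4372 CPM. Of 6 astrocyte markers, Aldoc (0.80) and Aqp4 (0.91) were higher and Gfap (-0.70) was lower, with a median of -0.12. Their sums were 1679 to 1830 and 1967 to 2545 CPM, in which Aldoc had means of 686 and 1196 CPM. Of 7 oligodendrocyte markers Mag was lower (-0.96) and the sums were 2973 to 3798 and 1767 to 3087 CPM. Of the 4 tested markers of ependyma and motile cilia, Ccdc39 was higher (0.75). The 9 such markers found, tested or not, summed to 91.8 to 111 CPM in wild-type and 114 to 143 CPM in homozygous libraries. The ciliary genes Kif27 (0.90) and Wdr60 (1.41) were also higher, while the ciliary dynein genes Dync2h1 (0.25) and Dync2li1 (-0.28) did not pass the test. Of 5 tested microglia and 3 tested endothelium markers none passed the test. Of 7 tested hypothalamus markers, Trh was lower (-1.08) and none was higher, with a median log2 difference of -0.41. All 9 hypothalamus markers, tested or not, summed to 899 to 1279 CPM in wild-type and 938 to 1305 CPM in homozygous libraries. Most of this was Pmch, with means of 879.7 and 1031 CPM. None of 2 tested telencephalon and 3 tested thalamus markers passed the test. What part of the motor gene differences moves with these markers was not tested.

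Promoters are shown for the kinesin-2 partners that moved apart and for a light chain of kinesin and one of dynein that moved in opposite directions. Each is the 250 bases before the RefSeq start (assembly GRCm38.p6, the same build as mm10), given along the strand of the gene, with GC boxes (GGGCGG on either strand) and CCAAT boxes (either strand) in capitals:
Kif3a: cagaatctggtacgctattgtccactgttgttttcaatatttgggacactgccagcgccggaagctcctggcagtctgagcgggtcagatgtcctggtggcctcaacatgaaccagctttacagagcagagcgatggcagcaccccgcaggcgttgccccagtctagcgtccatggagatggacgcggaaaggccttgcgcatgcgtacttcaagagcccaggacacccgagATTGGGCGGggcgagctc
Kif3c: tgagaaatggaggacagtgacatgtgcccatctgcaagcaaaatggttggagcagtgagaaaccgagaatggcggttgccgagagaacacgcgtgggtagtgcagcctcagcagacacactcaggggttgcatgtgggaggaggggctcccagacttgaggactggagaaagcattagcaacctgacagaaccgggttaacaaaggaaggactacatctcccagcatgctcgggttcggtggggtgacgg
Klc1: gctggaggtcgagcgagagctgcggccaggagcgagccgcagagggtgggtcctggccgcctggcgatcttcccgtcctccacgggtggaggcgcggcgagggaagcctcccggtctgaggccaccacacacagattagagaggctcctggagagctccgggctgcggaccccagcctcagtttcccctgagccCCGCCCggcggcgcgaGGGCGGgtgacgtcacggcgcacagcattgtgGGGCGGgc
Dynlt3: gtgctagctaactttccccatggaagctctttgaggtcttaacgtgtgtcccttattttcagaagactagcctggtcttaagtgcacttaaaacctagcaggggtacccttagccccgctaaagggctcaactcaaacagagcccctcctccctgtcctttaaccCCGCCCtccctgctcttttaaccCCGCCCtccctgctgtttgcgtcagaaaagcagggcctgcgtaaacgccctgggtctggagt
These lie at chr11:53567119-53567368 (Kif3a), chr12:3364882-3365131 (Kif3c), chr12:111758618-111758867 (Klc1) and chrX:9662984-9663233 (Dynlt3, minus strand). Klc1 held 3 GC boxes and Dynlt3 held 2, Kif3a held 1 GC box that overlaps a CCAAT box on the other strand, and Kif3c held neither. A promoter was found for 49 of the 65 motor genes. Their median GC content was 62% with a median of 19 CpG, against 52% and 6 over all 27025 promoters of the same length. GC boxes were in 59.2% of these and in 32.9% of all promoters, and CCAAT boxes in 46.9% and 34.5%. TATA boxes (TATAAA) were in 8.16% and 12.97%, and cAMP response elements (TGACGTCA) in 8.16% and 1.62%. The ER stress element was in 0 of the 49 and in 0.122% of all promoters. Promoter and transcript differed in base composition: the Kif2a promoter was 82.8% GC while its transcript was 38.6% GC, and the Klc1 promoter was 72.4% GC with a transcript of 56.0%.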

How the data were processed

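Hypothalamus RNA was turned into cDNA with the Ovation RNA-Seq System V2 and sequenced on a SOLiD 5500xl with paired reads of 75 and 35 bp, per the labels' protocols. The deposited table holds the authors' raw counts per gene symbol for 12 libraries, and per the submitters' processing notes the build was mm10. Which aligner and counter were used, and whether strand was used, is not given in the sources used here. One homozygous column carries a number that no label has and was used by its genotype only.

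Counts were fitted with edgeR 4.0.16 (TMM factors, filterByExpr, quasi-likelihood F test, genotype as the only term, all 12 libraries). P-values were adjusted by Benjamini and Hochberg's method over 10737 genes, and genes were called at an adjusted p under 0.05. CPM used each library's counts in tested genes (971375 to 2309007) times the TMM factors. The SE is the size of the log2 fold change divided by the root of F. Alternatives were DESeq2 1.42.0, limma 3.58.1, other filters, libraries left out, a replicate block and 2 corrections for GC content. On simulated counts for homozygous against wild-type (10510 genes), 13.6% of genes changed by 0.5 log2, 71.0% by 1 and 87.5% by 1.5 were called. Only 200 genes were changed there, while 25.4% of all genes were called in the data. With so few changed genes the adjusted p is a stricter threshold, so these shares are not the recovery in the data. GC content and length came from the longest basic transcript of GENCODE M21. Members and gene lists were chosen with earlier results of these data known. Genes named in full were all called members and the member of each subfamily with the highest mean CPM, not divided by length; of each other list, up to 4 genes by smallest p.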

Additional observations from a re-analysis of the deposited data

Results flagged for a closer look

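Among 60 groups of 4 libraries (20 motor genes given in full, 3 genotypes), 2 had a library far from the others, where chance gives about 1 in 20. Kif27 in homozygous library 5 was at 26.0 CPM, while the other homozygous libraries were at 16.8 to 17.5 CPM. Kifc2 in wild-type library 1 was at 77.7 CPM, while the other wild-type libraries were at 96.1 to 99.8 CPM. Both genes are among those whose call depends on single libraries.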

How the results depend on the processing

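Between homozygous and wild-type mice, no called motor gene changed direction in any alternative: over 17 genes and 22 alternatives, 320 calls were kept and 54 were lost. DESeq2's size factors and the looser filter gave the same 11 higher and 6 lower genes, beside 25.5% and 18.4% of all genes called. With one library left out, 8 to 11 were higher and 5 to 8 lower, beside 16.9% to 28.4% of all genes called. With each library's GC slope as a covariate, 3 were higher and 1 lower, beside 4.45% of all genes called (25.4% in the main fit). Correlations between same-numbered libraries ran from -0.265 to 0.337 (8 pairs, 1 of them over 0.1). That pair, heterozygous and homozygous library 2, had the highest correlation between any libraries of different genotypes. Of 10 libraries, 4 correlated best with their own number. Whether the numbers mark pairs of animals cannot be told from these values. With a replicate block 6 were higher and 5 lower (12.2% of all genes called). Between homozygous and heterozygous it gave 0 and 0 (0.307%).

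Between heterozygous and wild-type mice the main fit called 0. DESeq2's Wald test, limma-voom and the fit without homozygous libraries 4 and 5 each gave 3 higher and 1 lower. Over all genes these called 2.07%, 3.67% and 3.79%. The fit of only those genotypes gave 2 higher and 1 lower (3.64% of all genes). No filter gave 2 higher (1.57%), as did the GC slope covariate (2.46%). With one library left out, 0 to 3 were higher and 0 lower. The 3 came without heterozygous library 2, where 2.03% of all genes were called. Between homozygous and heterozygous mice, against 1 higher and 2 lower, limma-voom, only those genotypes, the fit without homozygous libraries 4 and 5 and the covariate gave 0 and 0; DESeq2's Wald test and no filter gave 2 higher; the GC correction gave 3 higher and 0 lower; with one library left out, 0 to 2 were higher and 0 to 3 lower. The cause of these differences was not tested, apart from fewer libraries where some were left out. At this depth small changes are hard to call, and genes under about 10 CPM carry the widest errors.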
